A study of Mus musculus with 10 samples.

Results

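The regions described here carried a called peak of dimethylated histone H3 lysine 4 (H3K4me2) in naive T cells of the mediastinal lymph node and in CD4+ lymphocytes of the spleen, and in none of the other 6 H3K4me2 libraries of the series. Peaks of all 8 libraries were merged into 1 region where they lay within 500 bp of each other, which gave 30062 regions. Of these, 1004 regions (3.34%) met the rule and are called members below. They were selected on the called peaks themselves, so their presence in 2 libraries and absence from 6 is a definition and not a result, and nothing is read from that share.

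The study profiled H3K4me2 by chromatin immunoprecipitation and sequencing in lymphocytes that were flow-sorted from mice that had airway inflammation and carried Gata3-YFP/YFP. Bronchoalveolar lavage and mediastinal lymph node each gave 1 library of naive T cells, 1 of Th2 (T helper 2) cells and 1 of ILC2s, the innate lymphoid cells of group 2, and CD4+ lymphocytes gave 1 library from the spleen and 1 from the thymus. All groups share the Gata3 reporter and the inflamed animals, and no group without inflammation is among these 8 libraries. The labels give no age, no sex, no inducing agent and no sort gate, and they do not call any cells resting. The lymph node and the spleen have 1 library each, so no difference between them was tested and every value below describes these libraries alone.

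H3K4me2 is laid down by MLL-family methyltransferases at promoters and enhancers, active ones as well as ones poised for later use. Naive and central T cells circulate through lymph nodes and spleen in a quiescent state. Transcription factors such as FOXO1, KLF2, TCF1, LEF1 and BACH2 hold that state in place, and they sustain the homing and egress receptors CCR7, L-selectin and S1PR1. Activation and differentiation into effector cells lower much of this programme.

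The members were mostly away from promoters. Only 59 members (5.88%; exact Clopper-Pearson 95% interval 4.5% to 7.52%) overlapped a 300-base promoter window, which runs from 250 bases before to 50 bases after an annotated start. The share was 33.8% over all regions and 66.7% over regions called in all 8 libraries. Such a window was overlapped by 273 of the 1610 regions called in lymph node, spleen and thymus alone and by 238 of the 2519 of both ILC2 libraries alone. The 72 windows under members had a median GC content of 56.5% and a median observed-over-expected CpG ratio of 0.37, against 61.3% and 0.79 for the 10973 windows under regions called in all 8 libraries. A CpG ratio of 0.6 or more was found in 20 of the 72 windows (27.8%), against 76.4% of the windows under regions called in all 8 and 35.8% of all 32851 windows. The promoter windows under members were thus as poor in CpG as promoter windows at large, and poorer than those under regions that every library shared.

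The windows below are shown because a member lies over the start of the gene. A member joins the peaks of both libraries, and whether each library's own peak covered the window was not checked. Sequences are from RefSeq, assembly GRCm38.p6, each 5′ to 3′ on the strand of its gene. Capitals mark matches on either strand to 10 short motifs, none of which contains another. For the naive T cell factors TCF1 and LEF1 the letters searched were CTTTGA, for the ETS family the letters AGGAAGT, for RUNX factors the letters TGTGGTT and for KLF factors the letters GGGTGTG. The FOXO motif was searched as the letters GTAAACA, and the activation-linked AP-1 motif as the letters TGANTCA. The GATA motif was searched as the letters AGATAA, the STAT motif as the letters TTCNNNGAA, the core of the CTCF motif as the letters AGGGGGC and the E-box of E proteins as the letters CAGCTG. Dapl1, Ly6c1, Aqp9 and Gucy1a1 have a member over the start, and Gm52717 is an annotated gene under the member that lies 76531 bp from Bach2.
Dapl1, chr2:59484403-59484702, plus strand: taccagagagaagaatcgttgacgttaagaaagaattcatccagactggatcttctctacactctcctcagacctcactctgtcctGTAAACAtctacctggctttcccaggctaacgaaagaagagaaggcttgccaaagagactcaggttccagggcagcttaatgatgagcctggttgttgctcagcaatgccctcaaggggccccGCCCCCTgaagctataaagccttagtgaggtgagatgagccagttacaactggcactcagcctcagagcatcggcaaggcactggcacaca
Ly6c1, chr15:75048614-75048913, minus strand: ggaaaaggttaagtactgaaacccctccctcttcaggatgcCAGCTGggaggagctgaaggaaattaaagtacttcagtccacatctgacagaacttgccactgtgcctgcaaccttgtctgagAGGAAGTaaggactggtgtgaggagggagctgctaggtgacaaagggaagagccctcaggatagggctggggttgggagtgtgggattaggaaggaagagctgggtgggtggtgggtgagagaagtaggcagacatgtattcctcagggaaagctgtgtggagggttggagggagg
Aqp9, chr9:71162584-71162883, minus strand: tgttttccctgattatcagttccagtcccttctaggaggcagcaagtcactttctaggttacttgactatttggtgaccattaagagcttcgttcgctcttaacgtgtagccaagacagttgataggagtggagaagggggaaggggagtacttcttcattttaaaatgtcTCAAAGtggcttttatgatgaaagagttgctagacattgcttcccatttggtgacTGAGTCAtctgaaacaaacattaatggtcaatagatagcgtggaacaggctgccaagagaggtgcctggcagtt
Gucy1a1, chr3:82145024-82145323, minus strand: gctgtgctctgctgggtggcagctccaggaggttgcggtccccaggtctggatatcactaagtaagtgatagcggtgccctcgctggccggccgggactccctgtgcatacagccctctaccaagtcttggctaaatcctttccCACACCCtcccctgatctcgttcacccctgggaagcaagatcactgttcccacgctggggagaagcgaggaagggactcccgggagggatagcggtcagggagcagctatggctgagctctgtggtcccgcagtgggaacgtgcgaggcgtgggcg
Gm52717, chr4:32160854-32161153, minus strand: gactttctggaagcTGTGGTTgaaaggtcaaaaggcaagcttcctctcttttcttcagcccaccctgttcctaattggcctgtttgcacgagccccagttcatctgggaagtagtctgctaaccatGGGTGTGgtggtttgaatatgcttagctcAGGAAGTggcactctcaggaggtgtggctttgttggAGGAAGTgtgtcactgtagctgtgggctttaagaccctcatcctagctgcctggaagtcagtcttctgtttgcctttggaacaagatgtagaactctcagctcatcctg

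The Dapl1 window held 1 FOXO and 1 CTCF core match, and that of Ly6c1, a gene for a surface protein of the Ly6 family, held 1 E-box and 1 ETS match. The window of Aqp9, the gene of the aquaglyceroporin AQP9, held 1 TCF1/LEF1 and 1 AP-1 match, and that of Gucy1a1, which encodes a subunit of soluble guanylate cyclase, held 1 KLF match. The Gm52717 window held 4 matches (1 RUNX, 1 KLF and 2 ETS). With chromosome 18 left out of the count, no window under a member held more, and 3 other windows held as many. Over the 72 windows, E-box letters were found in 19.4%, CTCF core letters in 16.7%, TCF1/LEF1 letters in 13.9% and ETS and KLF letters in 11.1% each. In all 32851 windows the shares were 16.3%, 10.6%, 16.0%, 9.35% and 7.95% in the same order. RUNX letters were found in 6.94% of the windows under members against 5.27% of all windows, AP-1 letters in 5.56% against 7.81% and FOXO letters in 2.78% against 3.65%. GATA letters were found in 3 of the 72 windows (4.17%) against 11.2% of all windows, and STAT letters in 1 window (1.39%) against 8.3%. In windows under regions called in all 8 libraries the GATA and STAT shares were 5.93% and 6.93%. A match describes letters in a window and not a bound site.

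The 8 libraries held between 11870820 and 24945548 sequenced tags, and between 28.7% and 53.7% of these lay in peaks, with the lymph node naive T library at the top (53.7%) and spleen at 44.2%. The peak minimum came to between 39.9 and 40.4 tags per 10000000 in every library. A marker counted as having a peak where one was called over the gene body or within 10 kb. A peak near several markers counted for each. Itgam and Itgax thus each entered the myeloid sums below with 89.0 in the lymph node and 94.2 in the spleen. All 10 T cell markers had a peak in both libraries, as 9 of them did in each ILC2 library. Cd4 stood at 1251.3 normalized tags in the lymph node and 1047.5 in the spleen, against 56.9 and 46.4 in the ILC2 libraries. The B cell marker Ms4a1 and the myeloid markers Lyz2, Csf1r and Adgre1 had no peak in any of the 8 libraries. Other such markers did. Cd79a had one in all 8, at 1391.9 in the lymph node, 1111.8 in the spleen and 498.7 to 1148.8 in the other 6. Bank1 had 281.5 and 254.1 in the lymph node and spleen, and Spi1 300.6 and 234.9. Bank1 and Spi1 were highest in this pair. The part of other cell types was not tested. Of the 13 B cell markers, 6 had a peak in the lymph node and 8 in the spleen (summed 2638.7 and 2278.2 normalized tags, against 1043.0 to 2769.4 in the other libraries), and of the 8 myeloid markers 5 had one in each (1166.4 and 1049.3, against 280.5 to 806.9). Cd8a had no peak in either library, and Cd8b1 had one of 104.4 in the lymph node and 82.0 in the spleen and none outside the thymus in the other 6.

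The libraries also fell apart at sex-linked loci in a way that crosses the cell types. The peak at Xist, the RNA that coats the inactive X chromosome, stood at 727.2 normalized tags in the lymph node naive T library, 605.5 in spleen and 680.8 in thymus, at 155.0 to 196.9 in the lavage naive T and Th2 libraries, and was not called in the ILC2 libraries. Peaks on the Y chromosome numbered 0 in the first 3 libraries and 2 to 5 in each of the other 5. The lymph node naive T library therefore shared this pattern with spleen and thymus and not with the lavage naive T library of its own group. On the X chromosome 15 of 665 regions (2.26%) were members. The part of this difference in the results was not tested; without the sex chromosomes 989 members remained.

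Members were low in tags per peak. Heights are normalized tag counts, the tags of the tallest peak of a region scaled to 10000000 tags in the library. They are not divided by peak length. Members spanned a median of 1521 bp, against 3943.5 bp for regions called in all 8 libraries. How much of the gap in height goes with length was not tested. In the lymph node the members ran from 39 to 633.8 with a median of 75.6, and in the spleen from 36.4 to 436.8 with a median of 53.1, or about 186 and 114 sequenced tags. Over the 19061 regions called in both libraries the medians were 200.7 and 169.2. Both heights reached 60 in 370 members (36.9%, against 85.9% of the regions called in both), 100 in 112 members and 200 in 9. The median excess over immunoglobulin G (IgG) was 17.4-fold in the lymph node and 12.2-fold in the spleen, against 42.5-fold and 22.4-fold over all regions called in both. Both samples titled IgG carry a label naming the antibody against H3K4me2, so what these folds are measured against is uncertain. The lowest members lay near the peak minimum, some with a deposited height slightly under it, such as those at Mgarp (43.9 in the lymph node, 37.8 in the spleen) and near Grifin (44.7 and 36.4). Just outside the rule stood 1891 regions with a peak in 1 further library, where that further peak was as low as 37.1 and stayed under 60 in 559 (29.6%). What kept a region out of a list was not measured, since the lists give no tag count where no peak was called. The IgG comparison removed 0 candidate peaks in 6 of the lists and 1 in each Th2 list.

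The member count depended on the thymus. It was 2614 without the thymus list, since 1610 regions were called in lymph node, spleen and thymus alone, and between 1007 and 1158 without any other of the 6. With equal numbers of the tallest peaks from every library it was 427. Without the spleen list the rule gave 1866 regions, and without the lymph node list 1068: 862 regions were called in the lymph node naive T library alone (median 45.5 tags) and 64 in the spleen alone (median 41). Of the regions with a spleen peak 98.5% had a lymph node peak, and of those with a lymph node peak 90.4% had a spleen peak. Most regions shared by the pair were common property, with 11038 (57.9%) called in all 8 libraries.

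Members were taller in the lymph node than in the spleen, as were most regions, and on the deposited heights the members' ratio was the larger. The lymph node peak was the taller in 921 members (91.7%) and in 92.5% of the regions called in both. The median log2 ratio of lymph node to spleen height was 0.43 over members (quartiles 0.20 and 0.64) and 0.24 over all regions called in both. Regions called in lymph node, spleen and thymus alone had a median of 0.42, close to the members, and those called in all 8 libraries 0.22. When heights were centred on the median of the regions called in both, the shift of 0.24 was removed and the lymph node was the taller in 716 members (71.3%) against 9530 of the 19061 regions. A lower peak in bulk cells can come from fewer marked cells or from less of the mark per cell, and these cannot be told apart.

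A height at least 2-fold greater in the lymph node was found in 63 members (6.27%), against 1.86% of the regions called in both, and 0 members were 2-fold taller in the spleen, against 0.0525%. After centring the counts were 30 (2.99%, against 0.86%) and 2. Per kb of peak the members were close to the other regions: 0 members and 0 of the regions called in both were 2-fold taller in the lymph node, the median log2 ratios were 0.17 and 0.16, and the lymph node was the taller in 83.9% of members against 86.1%. The members' peaks had a median length of 1512 bp in the lymph node and 1000 bp in the spleen. Among regions of like height, with a geometric mean of 51.0 to 85.0 tags, the 502 members had a median log2 ratio of 0.50 and the 2439 other regions 0.33. The plot of heights shows members spread along both axes with a fringe of points above the 2-fold line at low spleen heights.

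**Figure D1:**
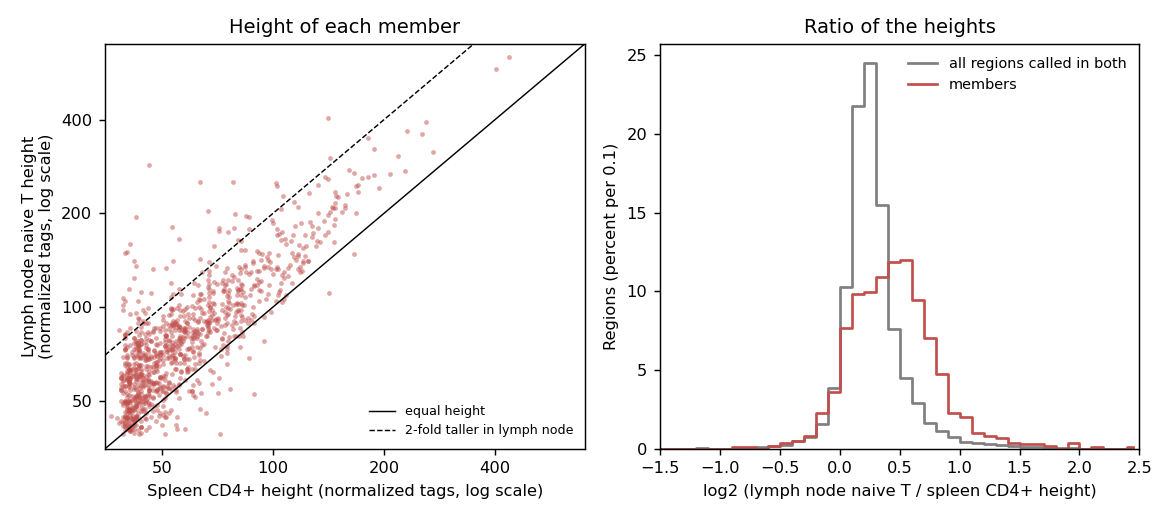
Left, height of each of the 1004 members in the lymph node naive T library against spleen CD4+ cells, in normalized tags on log axes; 63 points lie on or above the dashed 2-fold line. Right, share of regions in each 0.1 step of the log2 height ratio for members (median 0.43) and for all 19061 regions called in both libraries (median 0.24).

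The largest ratios in favour of the lymph node were found at 3 genes of general function and at 2 positions far from any gene. Among members at 60 tags or more in both libraries, the member in Tspan9, a tetraspanin gene, had 252.7 tags in the lymph node and 63.4 in the spleen, a log2 ratio of 1.99 (95% counting interval 1.73 to 2.27). Smurf1, a ubiquitin ligase gene, had 251.9 and 77.8 (log2 ratio 1.70, interval 1.45 to 1.95). The member 9350 bp from Ndufa9, which encodes a subunit of respiratory complex I, had 203.9 and 66.7. These 3 members stood out in the lymph node, and less so in the spleen, on heights not divided by peak length. Their regions spanned 4327, 4887 and 4902 bp, against a median of 1521 bp over members. Per kb of peak 0 members were 2-fold taller in the lymph node, so these ratios rest in part on peak length. A member at chr15:60118727-60125908, with no gene within 100 kb, had 404.2 and 141.2, and one at chr13:97406087-97409681, 153047 bp from Enc1, had 199.5 and 78.8. At the other end, the member in Rgs12, a regulator of G protein signalling, was the most spleen-weighted with 110.5 in the lymph node and 142.2 in the spleen (log2 ratio -0.36, interval -0.60 to -0.12). Dennd4c (68.3 and 86.2), Ccdc57 (77.6 and 94.2), Prdm13 (65.4 and 75.1) and Pam (147.5 and 165.5), each the nearest gene of its member, followed with log2 ratios of -0.34, -0.28, -0.20 and -0.17. The counting intervals of Ccdc57, Prdm13 and Pam included 0. Such intervals cover counting error only.

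By the mean log2 height of both libraries, the 2 tallest members lay in genes of general function. The tallest, chr8:72358956-72366728 in Eps15l1, an endocytic adaptor gene, had 633.8 tags in the lymph node and 436.8 in the spleen. It lies 37302 bp from Klf2, which encodes a transcription factor of T cell quiescence and trafficking. The second, chr9:121451201-121456791 in Trak1, which encodes a kinesin adaptor for mitochondria, had 583.8 and 401.8. Dapl1 followed with 391.6 and 260.1 over the start of the gene (chr2:59484016-59489611), the sequence of which is given above. The member in Dph5, a diphthamide synthesis gene, had 359.9 and 254.1 and lies 216186 bp from S1pr1, the egress receptor gene. Both Klf2 and S1pr1 are thus beyond the nearest gene of these members, and whether a region acts on a gene at that distance was not measured. The other 8 of the 12 tallest lay in Ap3m1 (368.9 and 230.7), near Atp1b1 (314.0 and 270.8), near Slc19a3 (305.1 and 218.2), near Cox10 (349.0 and 180.9), in Aven (273.0 and 228.4), in Lef1 (321.8 and 187.4), in A530021J07Rik (267.7 and 207.9) and at the chromosome 15 position without a gene named above. In each of these the lymph node peak was the taller.

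Members were short single peaks. In 1001 members each library had 1 peak, and in all 1004 the lymph node and spleen peaks overlapped. The median member spanned 1521 bp, against 3943.5 bp for regions called in all 8 libraries. Of the members 629 (62.6%; interval 59.6% to 65.7%) overlapped a gene, against 72.2% of all regions and 87.9% of those called in all 8. The share was also 62.6% for regions called in lymph node, spleen and thymus alone and 66.4% for those of both ILC2 libraries alone. Of the members 69 (6.87%) had no gene within 100 kb. Exons, introns and untranslated regions were not told apart, because the gene table gives gene intervals alone.

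The nearest peak of the other 6 libraries lay within 10 kb of 445 members (44.3%), at a median of 12363 bp. Regions called in lymph node, spleen and thymus alone had a peak of the remaining 5 libraries that near in 30.7%, and regions called in both ILC2 libraries alone had one of the remaining 6 in 34.7%. A peak of any other library lay beyond 100 kb of 56 members (5.58%). Library by library, between 26.0% (each Th2 library) and 33.2% (lymph node ILC2) of members had a peak within 10 kb. The shares were close across the 6 libraries. At 5 kb the share was 24.5% and at 25 kb 69.7%.

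**Figure D2:**
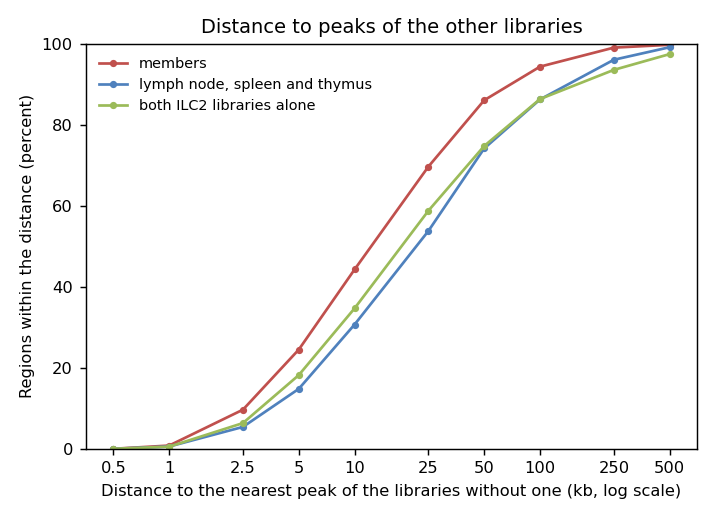
Share of regions with a peak of the libraries that do not call them within a given distance (kb, log axis), for the 1004 members, the 1610 regions called in lymph node, spleen and thymus alone and the 2519 called in both ILC2 libraries alone. The member curve is the highest from 2.5 kb on, at 44.3% within 10 kb.

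Some members lay near one another along the genome. Another member lay within 50 kb of 237 members (23.6%), which formed 101 groups of 2 or more and 24 of 3 or more. The same share was not taken for other regions, so whether members lie closer together than those is not known. The largest group held 6 members over 115906 bp beside Btg1 on chromosome 10, and the next held 5 around Rph3al on chromosome 11. In all 790 genes were the nearest gene of a member within 100 kb, of which 681 had 1 member, 85 had 2, 14 had 3, 9 had 4 and 1, Bach2, had 6.

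The genes of naive and central T cells, the largest of the 13 lists, held more members than any other list. By share the CD8 and natural killer list was higher, with 6 of 37 regions (16.2%). Of the 313 regions assigned to the 46 naive and central T cell genes, 28 (8.95%) were members, against 935 of 28609 regions (3.27%) assigned to any gene. Among regions called in both libraries the shares were 14.1% of 199 and 5.05% of 18497. The 28 members came from 17 genes, with 6 at Bach2, 4 at Btg1, 2 each at Atp1b1, Igf1r and Lef1 and 1 each at 12 others. Without Bach2 the share was 7.77% of 283 regions. Members of the list had a median of 85.7 tags in the lymph node and 58.25 in the spleen, against 76.0 and 53.1 over all members with a gene. With a limit of 10 kb to the nearest gene 16 of the 28 were counted. The list was chosen with earlier results of these libraries known, so the share is a description.

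Bach2 encodes a repressor that restrains effector programmes in T cells, and its 30 regions were a mixture. The gene held 6 members, 4 regions called with the thymus as well, 2 called in all 8 libraries and 1 called in both ILC2 libraries alone. The tallest member, chr4:32279872-32282694 within the gene, had 233.6 tags in the lymph node and 170.1 in the spleen. The others had 98.3 and 76.4, 60.1 and 42.0, 68.3 and 42.0, 45.1 and 50.3, and 93.4 and 57.3 in the lymph node and spleen respectively. Of the 6, 5 were taller in the lymph node and 5 lay within the gene. The broad region at chr4:32237576-32259762, called in all 8 libraries, had 2238.1 in the lymph node and 1096.4 in the spleen, against 244.8 to 454.3 in the other 6. The members there thus lay beside a domain that was itself higher in the same pair of libraries.

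Lef1, the gene of the T cell transcription factor LEF1, showed the same arrangement. Its 2 members, chr3:131124837-131130126 and chr3:131189849-131191653, had 321.8 and 110.1 tags in the lymph node and 187.4 and 53.6 in the spleen. Between them lay a region with 765.0, 510.0 and 41.0 tags in lymph node, spleen and thymus, and a region of all 8 libraries with 2510.7 in the lymph node, 1372.8 in the spleen, 633.5 in the thymus and 208.5 to 447.6 in the other 5. The first of these misses the rule only by a thymus peak near the minimum. At Btg1, an antiproliferative gene of quiescent lymphocytes, the 4 members lay 34841 to 96845 bp outside the gene, all on one side, the tallest with 170.6 and 138.4. The region over Btg1 itself stood between 857.8 and 1499.5 in all 8 libraries. A second region of all 8 assigned to Btg1, at chr10:96720616-96728874, had 532.2 and 432.1 in the pair, against 85.4 to 378.7 elsewhere. That the members are absent from the other libraries is set by the rule.

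Tgfbr2 encodes the signalling type 2 receptor for transforming growth factor beta, which restrains T cell activation. It held 4 members among 12 regions, with 97.9, 110.5, 50.8 and 113.8 tags in the lymph node and 53.1, 68.5, 44.3 and 87.2 in the spleen. Its broad region reached 1798.1 in the lymph node and 1309.9 in the spleen but also 1600.3 and 1999.1 in the ILC2 libraries, and 235.6 to 591.4 in the other 4. Here the broad region was not highest in the pair, unlike those of Bach2 and Lef1. Tgfbr3, the co-receptor betaglycan, had 3 members, of which the tallest had 247.4 and 170.1.

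**Figure D3:**
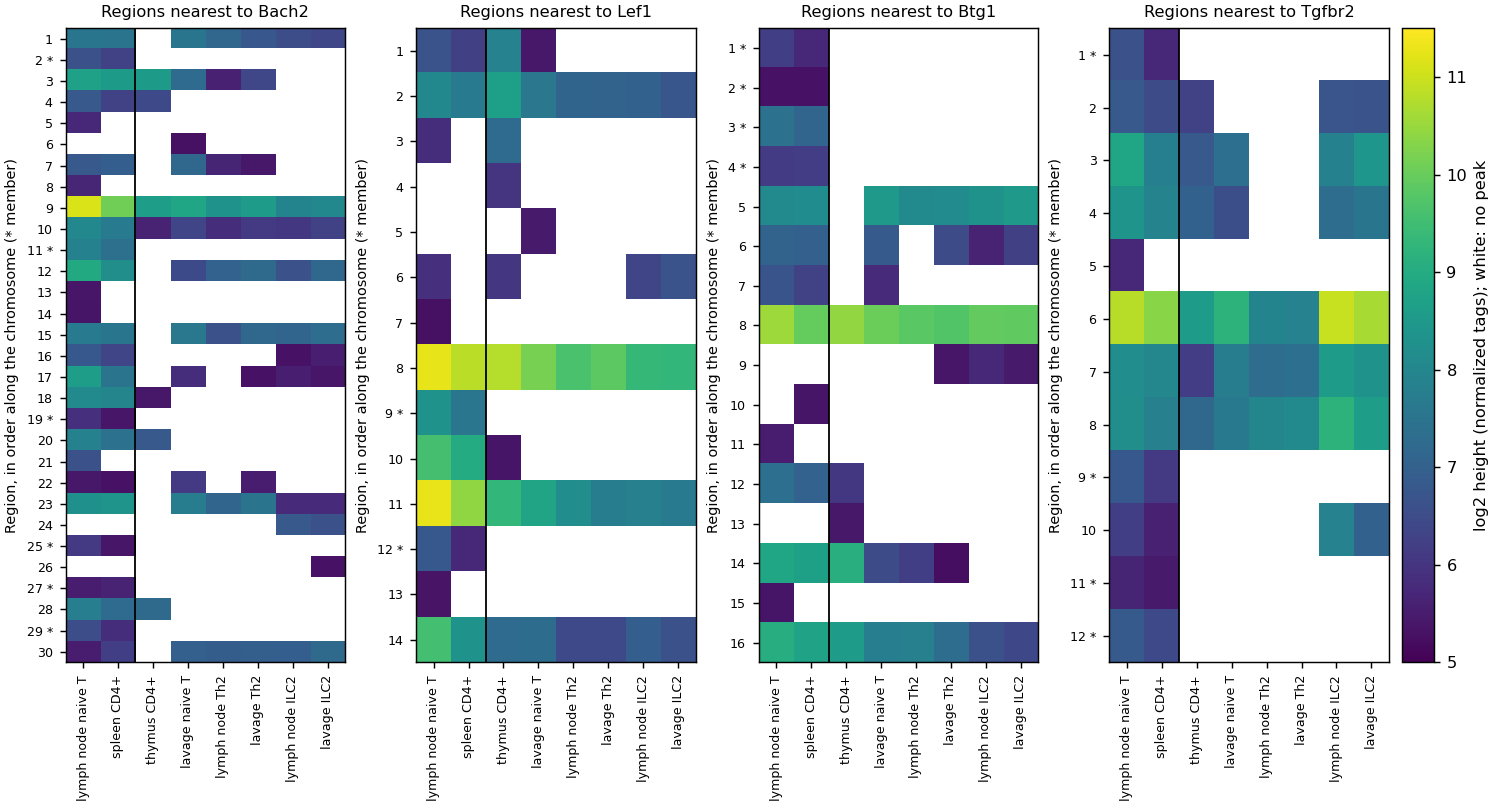
Height in each of the 8 libraries (log2 normalized tags; white where no peak was called) of every merged region nearest to Bach2, Lef1, Btg1 and Tgfbr2, in order along the chromosome, with members starred and a line after the lymph node naive T and spleen CD4+ columns. Members are filled in the first 2 columns alone, by the rule; at Btg1 all 4 stand at one end of the plotted regions.

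Ccr7, Klf2, Foxo1 and Satb1 each held 1 member and a far taller region called in all 8 libraries. At Ccr7, the lymph node homing receptor, the member 17986 bp from the gene had 140.2 tags in the lymph node and 88.1 in the spleen. The region over Ccr7 had 2260.0 and 1688.9, against 125.9 to 910.4 in the other 6 libraries. At Klf2 the member 14679 bp from the gene had 78.0 and 55.5, and the region over the gene 677.6 and 558.5, against 233.0 to 387.9. At Foxo1, which encodes an upstream regulator of KLF2 and CCR7, the member 60449 bp away had 73.9 and 59.2, and a region at chr3:52266240-52281670 over the gene 1751.8 and 1397.5 against 480.2 to 833.8. Each of these 3 regions was higher in the pair than in each of the other 6. A further region within Foxo1, at chr3:52286950-52304122, had 829.6 in the lymph node but 247.1 in the spleen, below the 349.0 of lavage naive T cells. Satb1, a chromatin organiser gene, had a member of 71.9 and 49.4 beside a region with 4986.9 and 3387.1 in the pair, 4610.6 in the thymus and 292.2 to 603.2 in the other 5. Nsg2 had 157.2 and 123.1 at a member 1473 bp from the gene. The region list of Dapl1 held no peak outside lymph node, spleen and thymus.

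Genes of CD8 and natural killer cells held 6 members among 37 regions (16.2%) at 5 genes. Crtam, a class-I-restricted T cell adhesion gene, had 2 members and no other region, at 129.2 and 118.4 and at 84.9 and 52.2 tags in lymph node and spleen. Klrk1, the gene of the receptor NKG2D, had one at 178.8 and 78.3, Klrd1, the gene of CD94, one at 123.5 and 106.8, Klra1 one at 53.6 and 43.8 and Xcl1, a chemokine gene, one at 82.9 and 82.5. Of the 5 CD8 and natural killer markers 3 had a peak in each of the pair, summed to 452.2 in the lymph node and 407.4 in the spleen against 0.0 to 423.0 outside the thymus. Klrk1 is both a marker and the nearest gene of a member. The part of CD8 or natural killer cells in these members was not tested.

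Other lists were near the background of 3.27% or rested on a few regions. Activation genes had 5 members of 100 regions (2 at Nr4a3, an early activation gene, and 1 each at Cd44, Icos and Pdcd1), T helper 1 and cytotoxic genes 4 of 87 (2 at Gzmb and 1 each at Hopx and Klrd1) and T cell receptor and identity genes 4 of 105 (2 at Bcl11b and 1 each at Prkcq and Thy1). Follicular helper genes had 2 of 52 (Ascl2 and Tox2), homing and egress genes 2 of 69 (Ccr7 and Klf2, which are on the naive list too), myeloid genes 2 of 53 (Fcgr3 and Spi1), and regulatory T cell, B cell and thymocyte genes 1 each (Nrp1, Bank1 and Satb1) of 68, 42 and 58. Th2 and ILC2 identity genes had 0 members of 78 regions and housekeeping genes 0 of 28. Under a minimum of 60 tags in every list, Th2 and ILC2 identity genes had 1.

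Genes with 3 or more members were mostly outside the lists. After Bach2, 9 genes had 4: Btg1, Tgfbr2, 1700025G04Rik, Asap1, Cdhr3, Man1c1, Mrtfa, Rph3al and Ttc28. Mrtfa encodes a coactivator of serum response factor, Asap1 an Arf GTPase-activating protein and Man1c1 a mannosidase of the Golgi. The 14 genes with 3 were 4933412E24Rik, A530021J07Rik, Chd7, Cox10, Ctif, Fgf13, Gucy1a1, Panx1, Pced1b, Ptk2, Retreg1, Skor1, Tgfbr3 and Tnfsf8. Chd7 encodes a chromatin remodeller, Ptk2 the focal adhesion kinase, Panx1 a membrane channel and Tnfsf8 the ligand of CD30. At Gucy1a1 all 3 regions were members, with 136.5, 129.2 and 58.9 tags in the lymph node and 111.4, 106.8 and 40.6 in the spleen. At Cdhr3, a cadherin-related gene, 4 of 6 regions were members and 0 regions of the gene were called in all 8 libraries.

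Genes that hold a member also differed at regions the rule did not use. Over the 11038 regions called in all 8 libraries, heights were taken as log2 and centred on the median of each library. Of the 809 such regions at genes with a member, 173 (21.4%) had lymph node naive T and spleen CD4+ both above each of the other 6 libraries, against 10.9% of the 10229 at other genes or at none. At genes with 2 or more members the share was 27.9% of 147 regions. Both were below each of the other 6 in 51 of the 809 regions (6.3%), against 12.5%. The median difference between the pair and the mean of the other 6 was 0.11 on the log2 scale, against 0.01. The same libraries gave both measures and no replicate was at hand, so this was not tested. Without the thymus list the shares came nearer to each other, at 30.2% for genes with a member and 24.5% elsewhere, where the main values were 21.4% and 10.9%.

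Naive genes without a member showed a similar difference. On the naive and central list, 13 of 26 such regions at genes with a member had both libraries above the other 6, and 13 of 38 at genes with none. The median differences were 0.65 in both. Among named genes the largest difference was 2.33 on the log2 scale, at Satb1, where the thymus had 4610.6 tags against 3387.1 in the spleen. The Lef1 region at chr3:131143227-131178277 stood 2.21 above the mean of the other 6 on the log2 scale. The broad Bach2 region stood 1.84 above it, a Foxp1 region at chr6:99371729-99381100 1.70 and the Ccr7 region 1.62. Outside the list, the highest of 4 such regions at Mrtfa had 1188.3 and 985.5 in the pair against 243.3 to 369.0, a difference of 1.48. The other Mrtfa regions had differences of 0.10, 0.12 and -0.58. The highest of 4 at Pced1b had 1033.5 and 849.8 against 162.8 to 458.9, a difference of 1.21. The other Pced1b regions had 0.95, 0.57 and -0.11. Against this, the region over Btg1 had a difference of -0.11, though a second Btg1 region, at chr10:96720616-96728874, had 1.10. The Chd7 regions ran from -0.85 to 0.96. Genes with a member therefore held shared regions of both kinds.

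**Figure D4:**
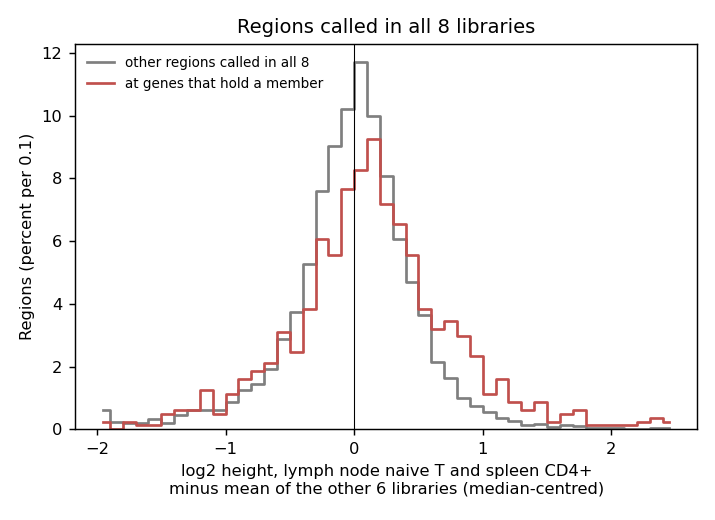
Share of the regions called in all 8 libraries in each 0.1 step of the log2 height of lymph node naive T and spleen CD4+ cells minus the mean of the other 6 libraries, after centring each library on its median. The 809 regions at genes with a member (median 0.11) reach further to the right than the 10229 others (median 0.01); values beyond the axis limits are counted in the outermost steps.

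The genes of members held regions of other classes as well. Only for the class shared with the thymus did the share stand well above that of all genes with a region. The number of regions per gene was not taken into account. Of the 790 genes with a member, 510 (64.6%) also had a region called in all 8 libraries, against 68.7% of all genes with a region. A region called in lymph node, spleen and thymus alone was found at 177 (22.4% of the genes with a member, 14.5% of the 1221 genes with such a region), against 9.38% of the 13016 genes with any region. A region called in both ILC2 libraries alone was found at 129 (16.3%, and 7.61% of the 1696 genes with one), against 13.0% of the genes with any region. At Klrk1, for instance, the member 725 bp outside the gene faced a region within it that had 145.9 and 73.1 tags in the ILC2 libraries and no peak elsewhere.

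Chromosome 15 held more members than its regions would give. Of its 1358 regions 81 (5.96%) were members, and of those called in both libraries 9.43%. On the other chromosomes between 2.26% (X) and 4.00% (chromosome 3) of regions were members. The 81 lay near 52 genes, and 6 of the 24 genes with 3 or more members are on chromosome 15 (Asap1, Mrtfa, 4933412E24Rik, Pced1b, Ptk2 and Retreg1). Regions called in lymph node, spleen and thymus alone made up 5.82% of chromosome 15, inside the range of the other autosomes. Over regions called in all 8 libraries on chromosome 15 the median log2 ratio of lymph node to spleen was 0.22, and the median centred height was 0.01 in the lymph node and 0.00 in the spleen, against -0.06 to -0.01 in the other 6. The difference of the pair from the other 6 there was 0.04, within the range of the other chromosomes. Members on chromosome 15 had medians of 78.0 and 55.0 tags, against 75.2 and 52.7 elsewhere.

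**Figure D5:**
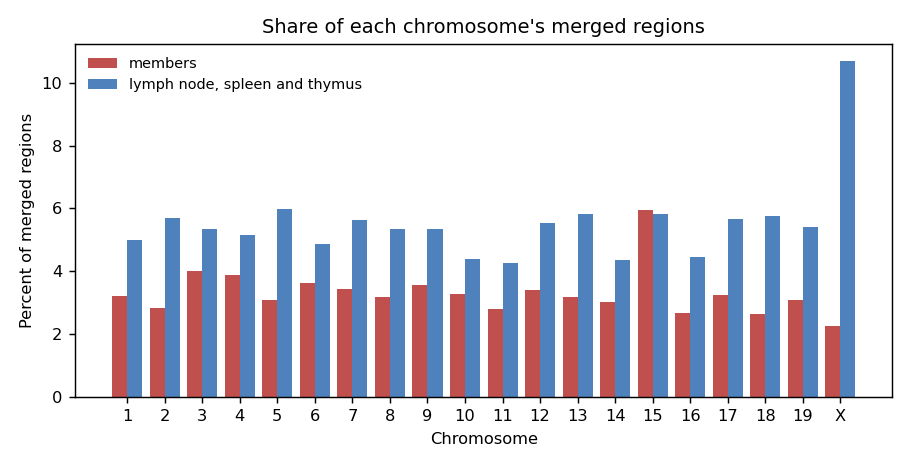
Percent of the merged regions of each chromosome that were members, beside the percent called in lymph node, spleen and thymus alone. Members reach 5.96% on chromosome 15 and 2.26% to 4.00% on the others; the regions shared with the thymus reach 10.7% on X.

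Of the annotated microRNA hairpins, 2 lay under a member, with chromosome 18 left out of the search. The member at chr6:52228877-52230644 (86.1 tags in the lymph node and 55.5 in the spleen) covers Mir196b, and the one at chr1:171063852-171065472 in Fcgr3 (64.6 and 45.7) covers Mir6546. Whether either microRNA was made in these cells was not measured.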

How the data were processed

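H3K4me2 was profiled by chromatin immunoprecipitation in 8 mouse libraries; 2 IgG samples entered only as the peak finder's background. Bowtie, HOMER and mm10 are named, without versions, in the submitters' processing notes. HOMER findPeaks called peaks library by library, per the file headers (initial peak size 1000 bp, minimum distance 2500 bp, false discovery rate 0.001, a 4-fold excess over IgG), with thymus IgG as background for all lists except spleen, which had spleen IgG. The deposited signal is a normalized tag count per peak, scaled by the authors to 10000000 tags. The deposited lists also hold a findPeaks score, a fold over IgG (ratio) and a p-value against IgG, all the authors'; of these only the fold was printed.

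Peaks were merged within 500 bp and a region's height in a library is its tallest peak. Genes are protein-coding or receptor constant gene intervals of RefSeq GRCm38.p6, which has the coordinates of mm10; the nearest within 100 kb was assigned. The planned motif search at peak centres was replaced by promoter windows of 300 bases, since no genome sequence was used here. All values were computed with Python (pandas 2.3.3). The members, lists and rules were chosen with earlier results of these data known. Named genes are the 12 tallest members, the 5 largest ratios each way at 60 tags or more in both libraries, genes with 3 or more members, list genes (up to 6 a list), up to 6 members over promoters and members at the peak minimum; the Foxp1, Mrtfa, Pced1b and Chd7 regions called in all 8 libraries, the printed windows and the microRNAs were chosen after their values were seen. No test was run, as neither tissue has a replicate. The merging and the rule recovered every planted region on simulated data.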

Additional observations from a re-analysis of the deposited data

How the results depend on the processing

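The number of members was 1007 with peaks merged only where they overlap, 879 within 2500 bp, 714 at a minimum of 60 tags, 427 with equal numbers of the tallest peaks, and between 1007 and 2614 with 1 library left out. The median log2 ratio of lymph node to spleen was 0.19 after centring and 0.17 per kb of peak. The 63 members 2-fold taller in the lymph node became 30 after centring and 0 per kb; the 0 members 2-fold taller in the spleen became 2 after centring. The share overlapping a gene was 67.1% at 60 tags, and the share within reach of another library's peak was 24.5% at 5 kb, 69.7% at 25 kb and 32.1% with equal numbers of peaks. The share of shared regions at genes with a member in which the pair was highest was 22.0% without centring and 21.9% to 30.2% with 1 library left out.

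List counts rested on few members. With a 10 kb limit the naive list had 16, T cell receptor 1, activation 2, T helper 1 and cytotoxic 2, and the regulatory T cell, homing and thymocyte lists 0. With every gene within 50 kb the T cell receptor list had 1, T helper 1 and cytotoxic 7, homing 6 and B cell 3. At 60 tags the T cell receptor and B cell lists had 0, and the Th2 and ILC2, follicular helper and myeloid lists 1. Of the rest, the naive list share moved to 14.1% among regions called in both, and all others stayed within 1.5 times or the interval of the main value; the autosome, Bach2, uncentred and shared-region alternatives were added after seeing the data. No paired analysis was possible because no result comes from a test. With medians near 186 and 114 tags, counting error limits single ratios.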
